A study of Rattus norvegicus with 12 samples.

Results

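The genes described are those of the synaptic vesicle and SNARE machinery, chosen by symbol: any probe set with 1 gene symbol that starts with Syt, Stx, Vamp, Snap, Cplx, Sv2, Rab3, Rims, Unc13 or Syngr, and Syn1, Syn2, Syn3, Syp, Nsf, Napa, Napb, Rph3a, Dnm1 and Amph. This gave 107 probe sets for 80 genes, of 15866 probe sets and 10411 single symbols on the array, and each gene was read at the brightest of its probe sets, by the mean of all 12 arrays. A choice by the first letters of a symbol also takes genes with other functions: Snapc2 and Snapc4 encode subunits of a transcription complex for small nuclear RNA genes, and Rab31, Rab33b, Rab34, Rab35, Rab38 and Rab39a are GTPases outside the Rab3 family. These are described apart. No probe set with a single symbol was matched to Syt1 or Napb, which were not analysed here.

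The cultures came from ventral midbrain of CD1 rat embryos at day 12, from 4 pregnant rats, with the embryos divided after mixing into 3 pools handled apart from each other. All cultures grew for 6 days with bFGF (20 ng/ml) and SHH (50 ng/ml), factors that keep midbrain precursors dividing and pattern them towards dopaminergic neurons, and for 3 days without them. On day 9 they were either depolarized with 56 mM KCl for 2 h, moved to fresh medium and collected 30 min or 2 h later, or kept in control medium for the same total times. The 4 groups were thus control and depolarized cultures at 30 min (replicates 1 to 3) and control and depolarized cultures at 2 h (replicates 4 to 6), each with 3 arrays of RNA pooled from duplicate cultures. The spread between arrays is therefore that of pooled cultures rather than of animals, and the labels do not say whether the 2 collection times came from the same preparation. All 11 measured pan-neuronal markers lay above the dimmest 25% of probe sets, as did 8 of 9 dopaminergic markers; Pitx3, a dopaminergic transcription factor, lay within it. Astrocyte and progenitor markers were also above it, so the arrays measured a mixture of neurons, glia and dividing cells. In such a mixture fewer cells of a type and less RNA per cell cannot be told apart. Of the 80 genes, 16 lay within the dimmest 25% of probe sets, among them Cplx2, Sv2c, Rims2 and Rph3a. A small difference at such a probe set does not show that the gene was unchanged.

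Transmitter release rests on SNARE proteins: a vesicle SNARE (synaptobrevin, encoded by Vamp1 and Vamp2) zippers with syntaxin 1A and SNAP-25 on the plasma membrane and pulls the membranes together. Synaptotagmins sense calcium, complexins hold and then help the assembled complex, Munc13 and RIM proteins prepare vesicles for release, and NSF with its adaptor alpha-SNAP takes the used complexes apart. Synapsins, synaptophysin and SV2 proteins sit on the vesicle, and dynamin, amphiphysin and AP180 (Snap91) help recover its membrane. Relatives of these proteins, such as SNAP-23, syntaxin 4 and syntaxin 16, serve fusion in other cells or inside the secretory pathway.

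Depolarization raised genes such as Snap23 and Rab3c and lowered Snapin, Stxbp3, Vamp5, Nsf and, at 2 h, both complexins, while the share of genes called lay near that of all probe sets. At 30 min 20 of 80 genes (25%) passed an adjusted p of 0.05, 7 higher and 13 lower, against 24% of all 15866 probe sets (10.8% higher, 13.1% lower). At 2 h 19 of 80 (23.8%) passed, 4 higher and 15 lower, against 25.2% of all probe sets (9.51% higher, 15.7% lower). An ordinary equal-variance test on only the arrays of the 2 groups compared was also run. In place of limma's moderated test on all 12 arrays, it passed 8 genes at 30 min and 2 at 2 h. The median difference of the 80 genes was -0.02 at 30 min and -0.05 at 2 h on the log2 scale, beside 0.01 and 0 over all probe sets. Control and depolarized arrays did not overlap for 25 genes at 30 min and 31 at 2 h (31.2% and 38.8%), against 36.8% and 37.5% of all probe sets. The 3 genes called higher at both times were Snap23, Rab3c and Rab35 (3.75%, against 3.79% of all probe sets), and the 5 called lower at both were Stx16, Vamp5, Nsf, Snapin and Rab34 (6.25%, against 6.26%); the 2 treatment comparisons share no arrays. Differences ran from -0.56 to 0.54 at 30 min and from -0.83 to 0.52 at 2 h. Without depolarized replicate 2 the count at 30 min was 13, and without depolarized replicate 4 the count at 2 h was 11. The split at 2 h was 6 higher and 11 lower after median centring and 6 higher and 13 lower after loess scaling. Shares of all probe sets were not counted under the ordinary test, with an array left out or after another scaling. At 30 min 9 of the 20 calls held when any 1 array was left out (Snap23, Vamp1, Vamp7, Stxbp3, Snapin, Syt5, Unc13d, Rab3c and Rab35), and at 2 h 9 of the 19 did (Stx8, Stx16, Vamp5, Nsf, Cplx1, Rab3c, Sv2a, Rab34 and Rab35).

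**Figure D1:**
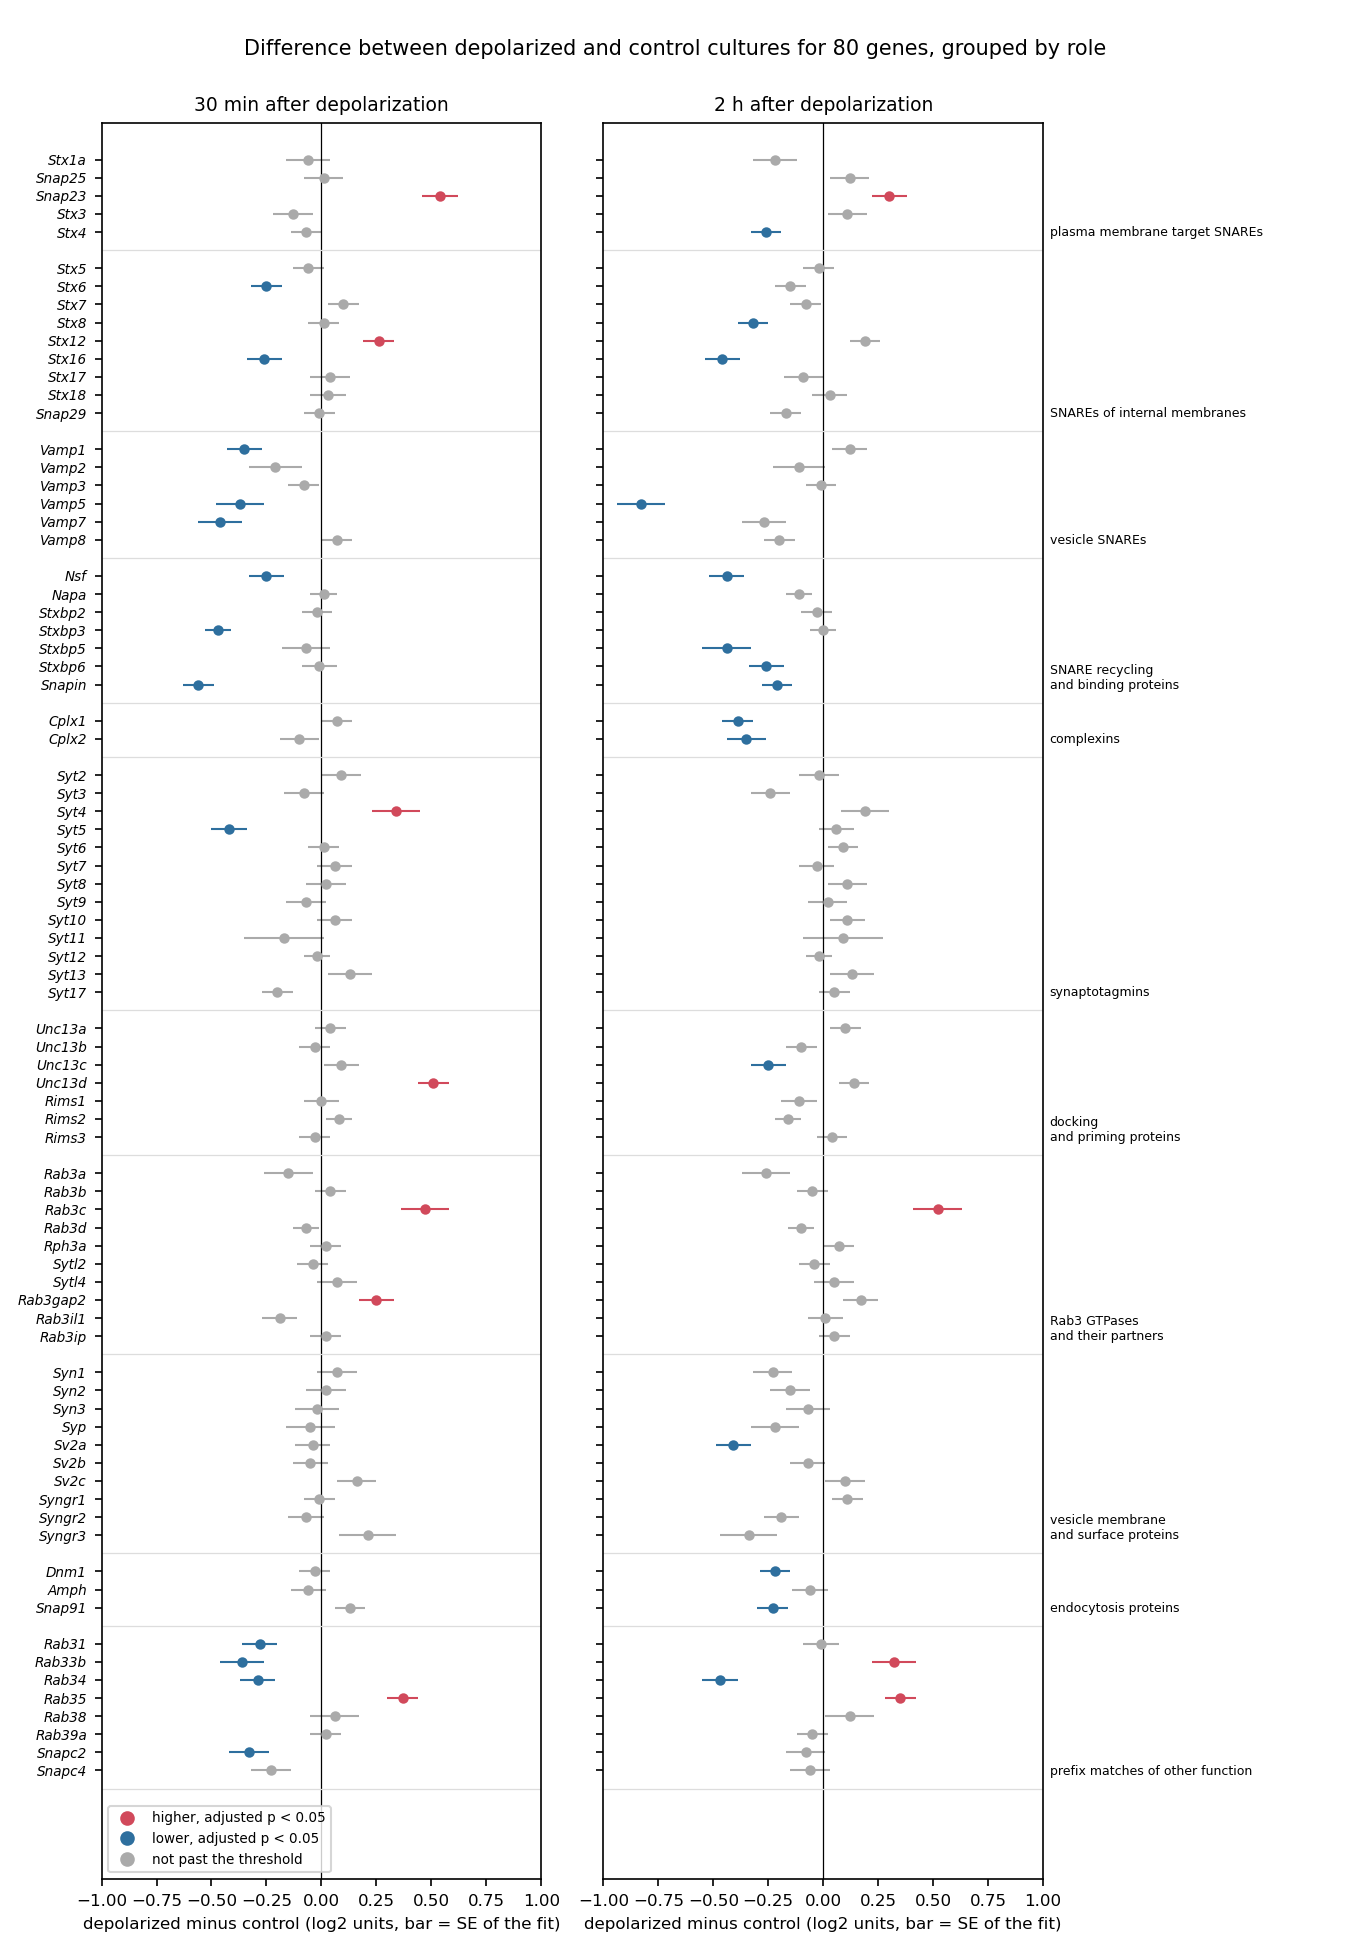
Difference between depolarized and control cultures (log2 units, horizontal axis) for each of the 80 genes at 30 min (left) and 2 h (right), grouped by role, with bars for the standard error of the fit; red genes were higher and blue genes lower at an adjusted p under 0.05, and grey genes did not pass. Most genes lie near 0, and at 2 h both complexins, 4 of 7 SNARE recycling and binding genes and 2 of 3 endocytosis genes lie below 0 and passed. Of all probe sets, 15.7% were lower and passed at 2 h.

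Among the SNAREs of the plasma membrane, the neuronal pair was not called after depolarization at either time, while the ubiquitous SNAP-23 rose. Snap23 read 9.04, 8.92 and 8.98 in 30 min controls and 9.48, 9.39 and 9.68 after depolarization, a rise of 0.54 (SE 0.08, adjusted p = 0.000106), or 1.46-fold. At 2 h it read 8.74, 8.59 and 8.59 in controls and 9.01, 8.82 and 8.99 after depolarization, a difference of 0.30 (SE 0.08, adjusted p = 0.0131). Every depolarized array was above every control array at its time, and the second probe set of Snap23 also passed (0.43 at 30 min and 0.23 at 2 h). The 2 h call was lost without control replicate 5 or depolarized replicate 4 (adjusted p up to 0.061). Snap25, the neuronal partner, differed by 0.01 (95% interval -0.19 to 0.21) at 30 min and by 0.12 (-0.08 to 0.32) at 2 h. Stx1a, neuronal syntaxin 1A, differed by -0.06 (-0.27 to 0.14) and by -0.22 (-0.43 to -0.02, adjusted p = 0.105). Stx4, a plasma membrane syntaxin of many cell types, fell by 0.26 at 2 h (SE 0.07, adjusted p = 0.0141), a call lost without control replicate 4 or 5 or depolarized replicate 5 (adjusted p up to 0.0687). Stx3 did not pass at either time.

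Of 9 SNAREs of internal membranes, Stx12 rose and Stx6 and Stx16 fell at 30 min, and Stx8 and Stx16 fell at 2 h. The share called was 33.3% at 30 min and 22.2% at 2 h, against 24% and 25.2% of all probe sets. Stx16 encodes a syntaxin of the trans-Golgi network. Its values at 2 h were 10.20, 10.25 and 10.00 in controls and 9.72, 9.67 and 9.67 after depolarization, and the groups did not overlap. The fall was 0.46 (SE 0.08, adjusted p = 0.000405) at 2 h and 0.26 (SE 0.08, adjusted p = 0.018) at 30 min; the 30 min call was lost without control replicate 1 or 3 or depolarized replicate 2 (adjusted p up to 0.0994). Stx8, an endosomal syntaxin, fell by 0.32 at 2 h (SE 0.07, adjusted p = 0.00322) from 9.14, 9.41 and 9.23 to 9.00, 8.92 and 8.90. Stx12, also endosomal, rose by 0.26 at 30 min (adjusted p = 0.0125, lost without control replicate 2 or depolarized replicate 3, up to 0.0733). Stx6, which pairs with syntaxin 16, fell by 0.25 at 30 min (adjusted p = 0.019, lost without control replicate 1 or depolarized replicate 2, up to 0.121). Stx5, Stx7, Stx17, Stx18 and Snap29 passed at neither time.

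Of 6 vesicle SNAREs, Vamp1, Vamp5 and Vamp7 fell at 30 min and Vamp5 fell at 2 h. Called were thus 50% at 30 min and 16.7% at 2 h, against 24% and 25.2% of all probe sets. Vamp5, a member of the family best known from muscle, read 9.09, 9.11 and 9.23 in 2 h controls and 8.15, 8.44 and 8.34 after depolarization, the largest fall among the 80 genes (-0.83, SE 0.11, adjusted p = 8.4e-05, 1.78-fold). All 3 depolarized arrays were below all 3 controls. At 30 min its difference was -0.37 (adjusted p = 0.025) and its arrays overlapped; without control replicate 1 or 2 or depolarized replicate 2 or 3 that call was lost (adjusted p up to 0.146), and quantile (-0.33, adjusted p = 0.0508) or loess scaling (-0.33, adjusted p = 0.0532) ended it too. A dimmer Vamp5 probe set differed by 0.01 and 0.03. Vamp7, the SNARE of late endosomes and lysosomes, read 9.58, 9.43 and 9.84 in 30 min controls and 9.35, 8.99 and 9.15 after depolarization, with no overlap. It fell by 0.46 (SE 0.10, adjusted p = 0.00309) at 30 min and differed by -0.27 (adjusted p = 0.0644) at 2 h.

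Vamp1 and Vamp2 encode the synaptobrevins. At 30 min Vamp1 read 8.32, 8.25 and 8.24 in controls and 7.84, 8.01 and 7.92 after depolarization, a fall of 0.35 (SE 0.08, adjusted p = 0.00325). At 2 h it read 8.90, 8.64 and 8.80 against 8.79, 9.02 and 8.89, and the groups overlapped (0.12, adjusted p = 0.313). The other Vamp1 probe sets differed by -0.15 and -0.04 at 30 min and were not called. Vamp2 differed by -0.21 (95% interval -0.47 to 0.04) at 30 min and by -0.11 (-0.36 to 0.15) at 2 h, and its dimmer probe set was higher by 0.22 at 2 h (adjusted p = 0.0268). Vamp3 and Vamp8 passed at neither time.

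In the SNARE recycling and binding group 3 of 7 genes fell at 30 min, where 13.1% of all probe sets were lower, and 4 of 7 fell at 2 h, where 15.7% were. By the limma fit 0 rose at either time, and at 2 h 0 of 7 differences were above 0. Of these 7 calls, those of Nsf at 30 min and of Snapin, Stxbp5 and Stxbp6 at 2 h were each lost when some single array was left out. Nsf encodes the ATPase that takes SNARE complexes apart. It read 10.45, 10.42 and 10.46 in 2 h controls and 9.90, 10.03 and 10.09 after depolarization. The groups lay apart, and the fall was 0.44 (SE 0.08, adjusted p = 0.000852). At 30 min it read 9.85, 9.65 and 9.68 against 9.32, 9.57 and 9.57, a fall of 0.25 (SE 0.08, adjusted p = 0.0346). The 30 min call was lost without control replicate 1 or 3 or depolarized replicate 1 (adjusted p up to 0.168) and after median centring (-0.20, adjusted p = 0.0959). All 3 Nsf probe sets were lower at both times, and the 2 dimmer ones differed by -0.34 and -0.29 at 2 h, both called. Napa, the alpha-SNAP adaptor that brings NSF to the complex, differed by 0.01 (95% interval -0.12 to 0.13) and by -0.11 (-0.23 to 0.01).

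Snapin, a SNAP-25 binding protein that also serves lysosome transport, had the largest fall at 30 min. It read 10.44, 10.29 and 10.44 in controls and 9.83, 9.74 and 9.92 after depolarization (-0.56, SE 0.07, adjusted p = 1.24e-05, 1.47-fold). At 2 h it read 10.36, 10.25 and 10.38 against 10.14, 10.12 and 10.10, and the fall was 0.21 (adjusted p = 0.0345). Depolarized arrays were below all controls at both times, but the 2 h call was lost without any 1 of control replicates 4 and 6 and depolarized replicates 4 to 6 (adjusted p up to 0.106) and under each of 3 other scalings (adjusted p 0.0906 to 0.104). Stxbp3, which binds syntaxin 4, read 9.43, 9.26 and 9.36 in 30 min controls and 8.88, 8.89 and 8.86 after depolarization (-0.47, SE 0.06, adjusted p = 2.96e-05). At 2 h its difference was 0.00 (95% interval -0.14 to 0.13), and the arrays of both groups lay between 9.26 and 9.38. Stxbp5 encodes tomosyn, which competes with synaptobrevin for syntaxin. It read 8.64, 8.44 and 8.13 in 2 h controls and 7.77, 7.94 and 8.18 after depolarization, so that 1 depolarized array was above the lowest control (-0.44, SE 0.11, adjusted p = 0.00947). Leaving out control or depolarized replicate 4 ended this call (adjusted p up to 0.0588), and a dimmer Stxbp5 probe set differed by 0.18 (adjusted p = 0.123). Stxbp6 fell by 0.26 at 2 h (adjusted p = 0.017), a call lost without control replicate 5 or depolarized replicate 5 or 6 (up to 0.085) and under quantile (adjusted p = 0.0509) or loess scaling (0.0645). Stxbp2 passed at neither time.

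Both complexins fell at 2 h, where 15.7% of all probe sets did. Neither was called at 30 min, also not at an unadjusted p under 0.05. Cplx1 read 9.07, 9.18 and 8.96 in 2 h controls and 8.57, 8.72 and 8.76 after depolarization (-0.39, SE 0.07, adjusted p = 0.000711). Its 30 min values were 8.26, 8.25 and 8.19 in controls and 8.27, 8.33 and 8.31 after depolarization (0.07, adjusted p = 0.56). The depolarized arrays were thus below every control at 2 h and slightly above every control at 30 min. A dimmer Cplx1 probe set differed by 0.04 at 2 h (adjusted p = 0.702). Cplx2 fell by 0.35 at 2 h (SE 0.09, adjusted p = 0.00986) from 6.90, 6.87 and 6.74 to 6.40, 6.61 and 6.46, again without overlap. Its probe set lies among the dimmest 25%, and without depolarized replicate 4 the adjusted p was 0.0508.

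The 13 synaptotagmins held 2 calls at 30 min (15.4%, against 24% of all probe sets) and 0 at 2 h by limma (against 25.2%). At 2 h 1 (Syt3, lower) had an unadjusted p under 0.05, and 9 of 13 differences were above 0. Syt4, an isoform known to be induced by neuronal activity, rose by 0.34 at 30 min (SE 0.11, adjusted p = 0.0318), from 10.61, 10.17 and 10.28 to 10.62, 10.64 and 10.82. The highest control lay just under the lowest depolarized array. The call was lost without control replicate 2 or 3 or depolarized replicate 2 or 3 (adjusted p up to 0.164) and under quantile scaling (0.30, adjusted p = 0.0536), and the other Syt4 probe set was higher by 0.28 (adjusted p = 0.139). At 2 h Syt4 differed by 0.19 (95% interval -0.04 to 0.42). Syt5, a calcium-binding isoform of dense-core and other vesicles, read 8.70, 8.65 and 8.88 in 30 min controls and 8.35, 8.28 and 8.33 after depolarization (-0.42, SE 0.08, adjusted p = 0.00135). Its 2 h arrays overlapped (0.06, adjusted p = 0.651). The other 11 (Syt2, Syt3, Syt6 to Syt13 and Syt17) passed at neither time.

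Of the 7 docking and priming genes, Unc13d rose at 30 min and Unc13c fell at 2 h. Each is 14.3% of the 7, against 24% of all probe sets called at 30 min and 25.2% at 2 h. Unc13d encodes Munc13-4, which primes secretory granules in blood cells and other secretory cells. It read 7.22, 7.14 and 7.27 in 30 min controls and 7.62, 7.72 and 7.82 after depolarization (0.51, SE 0.07, adjusted p = 6.34e-05, 1.42-fold). At 2 h it read 7.08, 7.15 and 7.10 against 7.22, 7.38 and 7.16, above the controls but not called (0.14, adjusted p = 0.173). Of the 8 microglial markers measured at 30 min, Cd68 rose by 0.38 (adjusted p = 0.00021) and the other 7 were not called; their mean level per array ran from 7.10 to 7.19 in controls and from 7.15 to 7.34 after depolarization, and their part in the Unc13d value was not tested. Unc13c fell by 0.25 at 2 h (adjusted p = 0.0288), lost without control replicate 5 or 6 or depolarized replicate 4 (up to 0.155) and after median centring (adjusted p = 0.0747). Unc13a, the main Munc13 of forebrain synapses, differed by 0.04 (95% interval -0.11 to 0.19) and 0.10 (-0.06 to 0.25). Rims1 differed by 0.00 (-0.18 to 0.17) and -0.11 (-0.29 to 0.06), and Rims2 by 0.08 (-0.06 to 0.21) and -0.16 (-0.29 to -0.02, adjusted p = 0.0885). Unc13b and Rims3 also passed at neither time.

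In the Rab3 group only Rab3c was called at both times. Rab3 proteins are the GTPases of secretory vesicles. Rab3c read 7.81, 7.69 and 7.94 in 30 min controls and 8.16, 8.17 and 8.51 after depolarization (0.47, SE 0.11, adjusted p = 0.00609). At 2 h it read 8.35, 8.19 and 8.03 against 8.92, 8.51 and 8.71 (0.52, SE 0.11, adjusted p = 0.00341), the largest rise at that time. Depolarized arrays were above all controls at each time. Rab3a, the most studied synaptic Rab3, went the other way without a call: -0.15 (95% interval -0.39 to 0.08) at 30 min and -0.26 (-0.50 to -0.02, adjusted p = 0.102) at 2 h. Rab3gap2, a subunit of the Rab3 GTPase-activating complex, rose by 0.25 at 30 min (adjusted p = 0.029), a call lost without control replicate 2 or depolarized replicate 1 or 3 (up to 0.145). Rph3a, rabphilin, differed by 0.02 (-0.14 to 0.17) and 0.07 (-0.09 to 0.23). Rab3b, Rab3d, Sytl2, Sytl4, Rab3il1 and Rab3ip passed at neither time.

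Of 10 vesicle membrane and surface genes, 0 passed at 30 min by limma (0 at an unadjusted p under 0.05), against 24% of all probe sets. At 2 h Sv2a passed (10%, against 25.2%), and 2 of 10 differences were above 0. Sv2a encodes a vesicle glycoprotein. It read 9.10, 9.33 and 9.11 in 2 h controls and 8.67, 8.73 and 8.90 after depolarization, with no overlap (-0.41, SE 0.08, adjusted p = 0.00158). At 30 min the arrays overlapped (-0.04, adjusted p = 0.797). Syn1, synapsin I, read 10.37, 10.37 and 10.39 in 2 h controls and 9.99, 10.22 and 10.21 after depolarization, below every control but not past the threshold (-0.23, adjusted p = 0.0631). Syngr3 (synaptogyrin 3) likewise differed by -0.34 (95% interval -0.62 to -0.06, adjusted p = 0.0717) at 2 h. Syp, synaptophysin, differed by -0.22 (-0.45 to 0.01) and Syn2 by -0.15 (-0.34 to 0.04), although a dimmer Syn2 probe set was lower by 0.27 (adjusted p = 0.0218). Sv2b differed by -0.07 (-0.24 to 0.10), Sv2c by 0.10 (-0.08 to 0.28) and Syngr1 by 0.11 (-0.03 to 0.26), while a dimmer Syngr1 probe set was higher by 0.22 (adjusted p = 0.0227). At 30 min the differences of these 10 genes ran from -0.07 to 0.21, although dimmer probe sets of Sv2b (-0.26, adjusted p = 0.046) and Syngr2 (-0.20, adjusted p = 0.0225) were called there. Syn3 and Syngr2 passed at neither time at their brightest probe sets.

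Of 3 endocytosis genes, Dnm1 and Snap91 fell slightly at 2 h (66.7%, against 15.7% of all probe sets). Dnm1, the neuronal dynamin that cuts vesicles from the membrane, read 11.19, 11.29 and 11.16 in 2 h controls and 10.86, 11.01 and 11.12 after depolarization (-0.22, SE 0.07, adjusted p = 0.0264). Snap91, the clathrin assembly protein AP180, read 11.19, 11.04 and 11.11 against 10.83, 10.89 and 10.93 (-0.23, SE 0.07, adjusted p = 0.0295), while its dimmer probe set, among the dimmest 25%, stood higher on every depolarized array than on any control without a call (0.12, adjusted p = 0.262). The groups did not overlap for either gene at its brightest probe set, but both calls were lost after median centring (adjusted p = 0.0658 and 0.0738) or loess scaling (0.0595 and 0.0539). Control replicate 4, control replicate 5 (Dnm1) or 6 (Snap91), depolarized replicate 4 and, for Snap91, depolarized replicate 5 each decided them: without 1 of these the adjusted p reached 0.151 for Dnm1 and 0.121 for Snap91. At 30 min Dnm1 differed by -0.03 (95% interval -0.18 to 0.11) and Snap91 by 0.13 (-0.02 to 0.29). Amph, amphiphysin, differed by -0.06 at both times (-0.24 to 0.12).

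The 8 genes matched only by the first letters of their symbol held 5 of the calls at 30 min and 3 at 2 h. These were 62.5% and 37.5% of the 8, against 24% and 25.2% of all probe sets. Rab35, a GTPase of endosomes and the plasma membrane, read 9.11, 9.14 and 9.15 in 30 min controls and 9.44, 9.56 and 9.52 after depolarization (0.37, SE 0.07, adjusted p = 0.000963). It was also higher at 2 h (0.35, adjusted p = 0.00191), and its groups lay apart at both times. Rab34, linked to the Golgi and to cilia, fell by 0.29 at 30 min (adjusted p = 0.0148) and by 0.47 at 2 h (adjusted p = 0.000592). The 30 min call was lost without control replicate 1 or depolarized replicate 3 (up to 0.0696), and a dimmer Rab34 probe set differed by -0.11 and 0.04. Rab33b, a Golgi and autophagy GTPase, read 8.51, 8.37 and 8.44 in 30 min controls and 7.88, 8.02 and 8.34 after depolarization (-0.36, adjusted p = 0.015). At 2 h it read 8.86, 8.94 and 8.70 against 9.17, 9.04 and 9.27, the opposite direction (0.32, adjusted p = 0.0268). These calls were lost without control replicate 1 or depolarized replicate 1 or 2 at 30 min (up to 0.0784), and without control or depolarized replicate 4 or 6 at 2 h (up to 0.105). Rab31 fell by 0.28 (adjusted p = 0.015) and Snapc2 by 0.33 (adjusted p = 0.0131) at 30 min. The Rab31 call was lost without control replicate 2 or 3 or depolarized replicate 1 or 2 (up to 0.0729), and a dimmer Rab31 probe set differed by -0.23 (adjusted p = 0.131). The Snapc2 call was lost without control replicate 3 or depolarized replicate 2 (up to 0.0854). Rab38, Rab39a and Snapc4 passed at neither time. A count was also made without these 8 and Rab3gap2, Rab3il1 and Rab3ip, which act on Rab proteins rather than in fusion. Then 14 of 69 genes (20.3%) passed at 30 min and 16 of 69 (23.2%) at 2 h, against 24% and 25.2% of all probe sets.

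**Figure D2:**
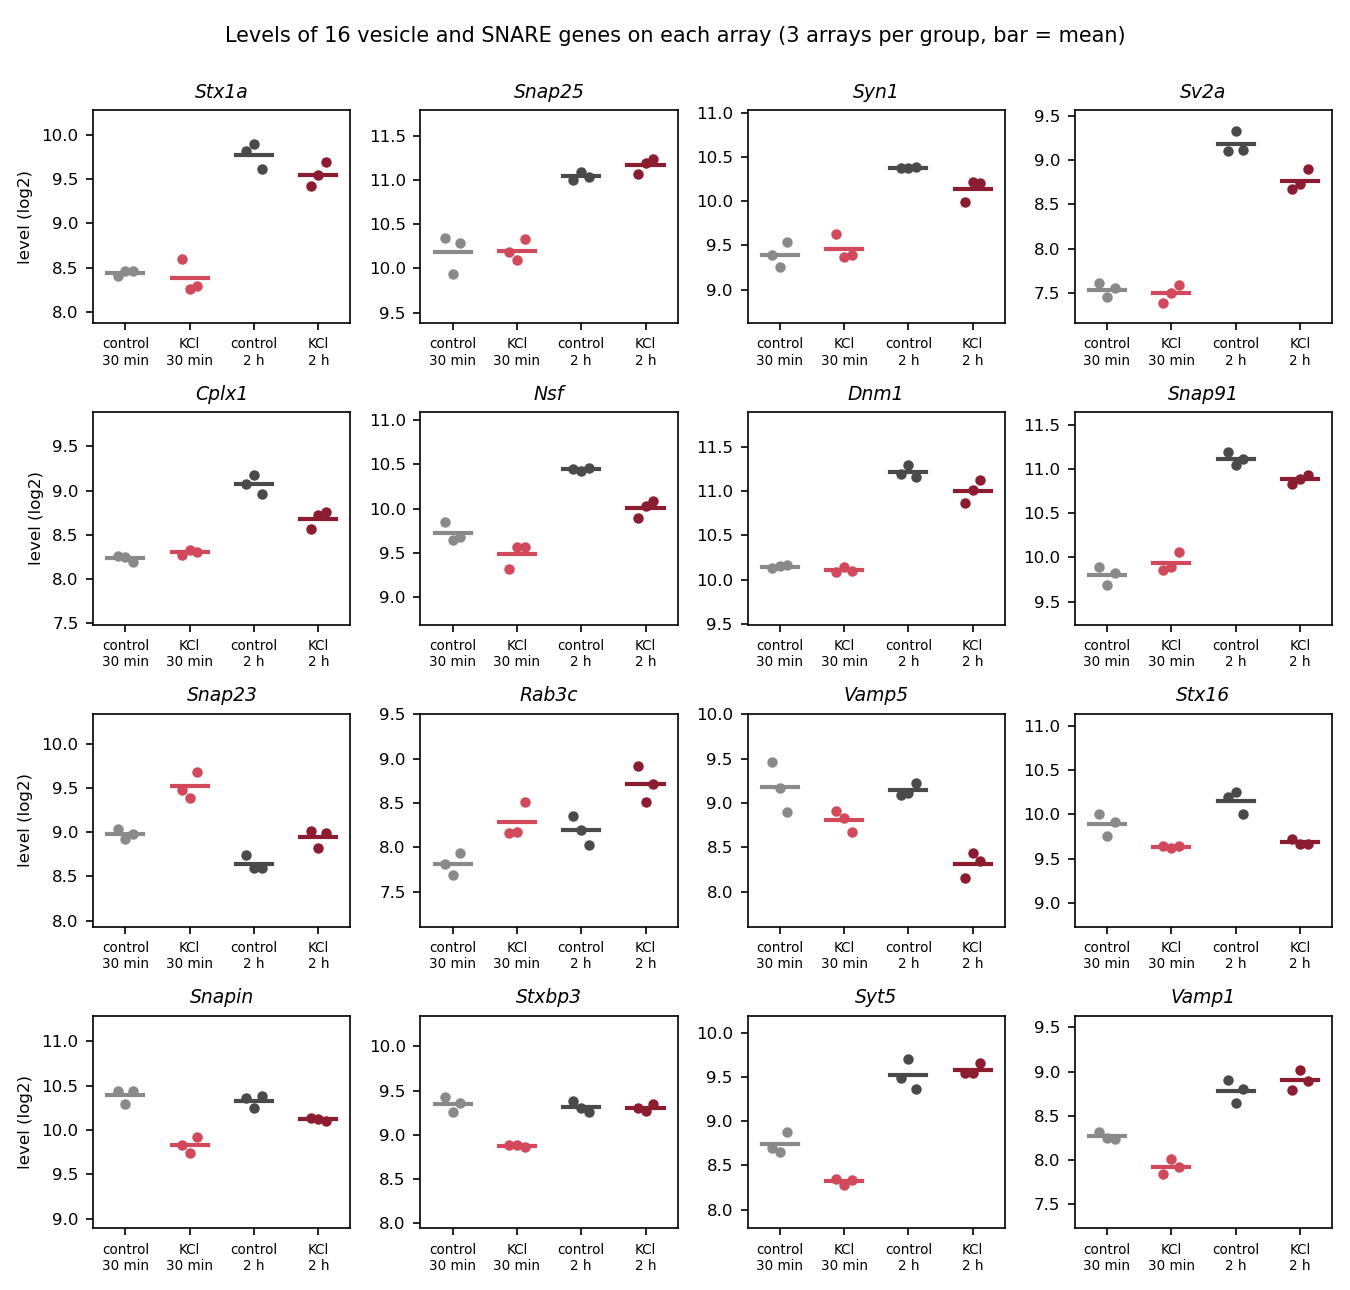
Level on each array (log2, vertical axis) of 16 of the genes in the 4 groups, 3 arrays per group, with a bar at the group mean; every panel spans the same number of log2 units. In the upper rows the 2 h groups stand above the 30 min groups, as for Sv2a (1.65 higher in controls), and in the third row Snap23 and Rab3c stand higher and Vamp5 and Stx16 lower with KCl at both times.

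The promoters of 6 of these genes are shown. Of the 15 genes lower at 2 h, 4 were picked by hand (Cplx1, Sv2a, Nsf and Stxbp5). The larger falls of Vamp5, Rab34 and Stx16 are not among them. Vamp1 and Syn1 are shown because their promoters hold letters bound by factors known to respond to depolarization. The Syn1 promoter was added after the values of that gene were seen. Each is the 250 bases before the first listed start of the gene on its own strand, 5′ to 3′, from RefSeq on GRCr8; capitals mark the cAMP response element TGACGTCA, the site of CREB, or the site GCGGGGGCG or GCGTGGGCG of EGR factors on either strand. The positions are chr14:1328823-1329072 (plus strand) for Cplx1, chr2:186430113-186430362 (plus) for Sv2a, chr10:89357384-89357633 (minus) for Nsf, chr1:6155529-6155778 (minus) for Stxbp5, chr4:159698644-159698893 (plus) for Vamp1 and chrX:3725495-3725744 (plus) for Syn1.
Cplx1: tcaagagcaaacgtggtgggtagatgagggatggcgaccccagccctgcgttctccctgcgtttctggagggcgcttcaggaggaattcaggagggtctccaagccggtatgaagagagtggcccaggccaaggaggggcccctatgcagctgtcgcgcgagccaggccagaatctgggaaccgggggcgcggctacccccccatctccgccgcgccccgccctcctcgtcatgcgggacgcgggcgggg
Sv2a: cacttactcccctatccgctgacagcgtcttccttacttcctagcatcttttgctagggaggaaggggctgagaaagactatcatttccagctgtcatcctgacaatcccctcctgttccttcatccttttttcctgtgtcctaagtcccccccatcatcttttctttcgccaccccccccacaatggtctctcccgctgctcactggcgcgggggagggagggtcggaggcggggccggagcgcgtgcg
Nsf: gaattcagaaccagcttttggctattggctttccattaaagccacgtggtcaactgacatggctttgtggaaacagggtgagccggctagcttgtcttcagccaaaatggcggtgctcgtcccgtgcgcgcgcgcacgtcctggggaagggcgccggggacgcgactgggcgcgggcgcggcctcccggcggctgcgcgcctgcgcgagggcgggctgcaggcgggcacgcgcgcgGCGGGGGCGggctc
Stxbp5: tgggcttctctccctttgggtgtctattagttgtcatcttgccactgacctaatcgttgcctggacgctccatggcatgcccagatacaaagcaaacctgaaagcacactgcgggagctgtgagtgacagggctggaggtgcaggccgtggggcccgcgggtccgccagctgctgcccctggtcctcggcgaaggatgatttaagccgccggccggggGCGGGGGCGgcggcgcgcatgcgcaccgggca
Vamp1: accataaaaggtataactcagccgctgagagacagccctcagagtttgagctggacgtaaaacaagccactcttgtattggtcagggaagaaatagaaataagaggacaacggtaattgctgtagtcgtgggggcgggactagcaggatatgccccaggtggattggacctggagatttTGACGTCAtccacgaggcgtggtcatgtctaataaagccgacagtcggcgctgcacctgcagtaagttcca
Syn1: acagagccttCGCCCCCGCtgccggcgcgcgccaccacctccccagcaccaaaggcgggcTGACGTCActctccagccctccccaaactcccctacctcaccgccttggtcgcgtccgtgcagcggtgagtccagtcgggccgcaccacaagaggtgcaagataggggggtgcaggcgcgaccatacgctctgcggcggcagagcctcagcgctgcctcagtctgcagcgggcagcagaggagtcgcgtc
In these windows the EGR letters began 14 bases before the start of Nsf, 32 bases before that of Stxbp5 and 240 bases before that of Syn1, on the opposite strand there. The response element began 71 bases before the start of Vamp1 and 190 bases before that of Syn1. Cplx1 and Sv2a held neither in these 250 bases. Of the 80 genes, 63 were matched to a promoter by gene identifier. The EGR letters stood in 7 of 63 (11.1%: Nsf, Rab3d, Stxbp5, Syn1, Syn2, Syp and Vamp2), beside 2.94% of all 27457 promoters and 5.52% of 8611 promoters of genes on the array. The response element stood in 3 of 63 (4.76%: Napa, Syn1 and Vamp1), beside 1.7% and 2.65%. The AP-1 site TGAGTCA stood in 1 of 63 (1.59%: Rab34), a lower share than the 3.98% and 3.47% of those 2 sets. The SP1 box GGGGCGGGG, which can share letters with an EGR site, stood in 18 of 63 (28.6%), beside 9.74% and 18.33%, and TATAAA in 2 (3.17%), beside 13.09% and 8.36%. Median GC content was 62.8% for the 63 promoters, 59.6% for genes on the array and 52.0% for all, and the part of base composition in these shares was not tested. Of the 7 genes with EGR letters, Nsf and Stxbp5 were called after depolarization, and of the 3 with the response element, Vamp1 was. Of all 80 genes, 62.5% were called at neither time. The counts of genes with these letters are too small to set apart from that share. These matches are letters in a window, and no binding was measured.

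The responses at the 2 collection times were set against each other gene by gene (the 2 h response minus the 30 min response). They differed for 10 of 80 genes (12.5%), 5 in each direction, against 13% of all probe sets (6.16% higher, 6.79% lower); the median was -0.05, beside -0.02. The count was 6 when control replicate 2, control replicate 5 or depolarized replicate 3 was left out, and the share of all probe sets was not counted then. In 5 of the 10 the 2 h response was the higher. Rab33b had the largest difference (0.68, SE 0.14, adjusted p = 0.00429), from a fall to a rise. For Syt5 (0.48, adjusted p = 0.0125), Stxbp3 (0.47, adjusted p = 0.002) and Vamp1 (0.46, adjusted p = 0.01), a fall at 30 min stood against a difference between 0.00 and 0.12 at 2 h. Snapin fell at both times, less at 2 h (0.35, adjusted p = 0.0216).

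In the other 5 the 2 h response was the lower. Cplx1 had the largest such difference (-0.46, SE 0.10, adjusted p = 0.005), followed by Sv2a (-0.37, adjusted p = 0.0464), Unc13d (-0.36, adjusted p = 0.0259), Snap91 (-0.36, adjusted p = 0.0289) and Stx8 (-0.34, adjusted p = 0.0362). Of these, Unc13d was a rise that was smaller at 2 h, and the others were falls at 2 h with no call at 30 min. The differences for Vamp1, Stxbp3, Cplx1, Syt5 and Rab33b held without any 1 of the 12 arrays. Those for Stx8 and Sv2a were each lost without any of 7 arrays (adjusted p up to 0.094 and 0.125), those for Unc13d and Snap91 without any of 5 (up to 0.0732 and 0.0867) and that for Snapin without any of 4 (up to 0.062). Quantile scaling ended those of Stx8 (adjusted p = 0.0501) and Sv2a (adjusted p = 0.112). The dimmer probe sets of Cplx1 (0.13), Snap91 (-0.03) and Vamp1 (0.16 and 0.12) were not called. For the genes called at 1 time that are not among these 10, such as Stxbp5 at 2 h or Vamp7 at 30 min, the responses were not shown to differ.

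**Figure D3:**
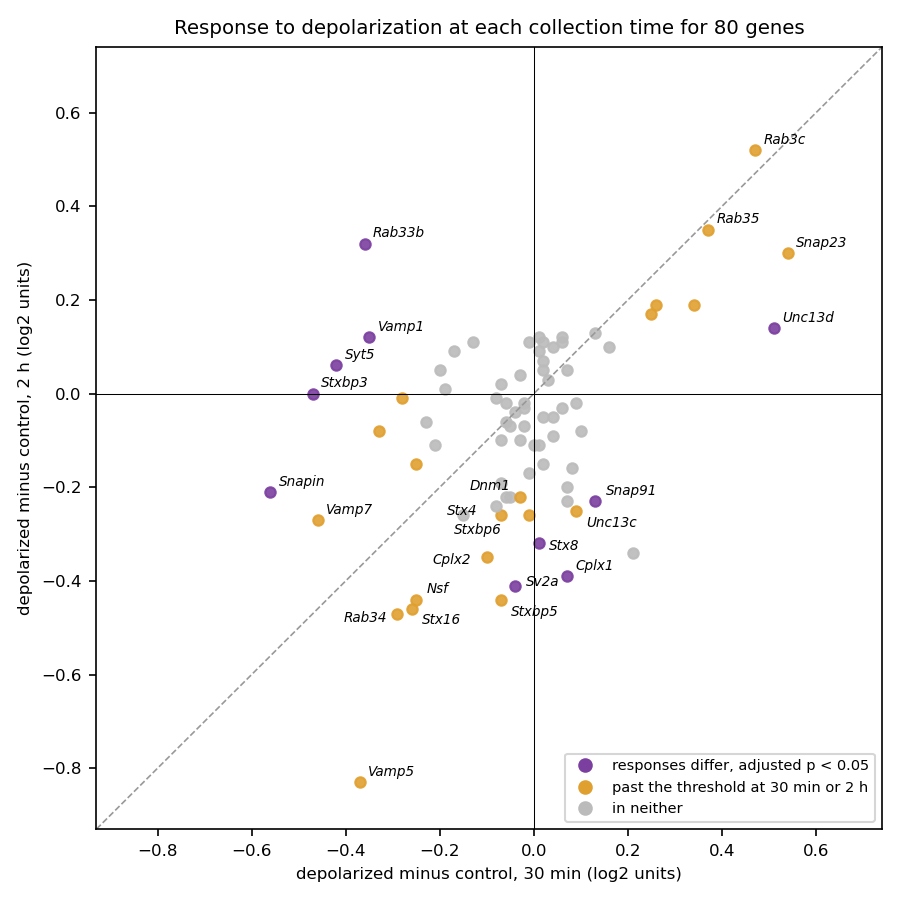
Difference between depolarized and control cultures at 30 min (horizontal axis) and at 2 h (vertical axis) in log2 units for the 80 genes; purple points are the 10 genes whose responses differed, orange points passed at 30 min or 2 h, and the dashed line marks equal responses. Rab33b, Vamp1, Syt5 and Stxbp3 lie above the line on the left, while Cplx1, Sv2a, Stx8 and Snap91 lie below it near 0 on the horizontal axis.

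Between collection times a larger share of these genes differed, and more of them were higher at 2 h than lower. Among controls, 38 of 80 genes (47.5%) differed between 2 h and 30 min, 28 higher and 10 lower at 2 h, against 35.3% of all probe sets (18.1% higher, 17.2% lower). Among depolarized cultures, in a comparison added after the data were seen, 41 of 80 (51.2%) differed, 27 higher and 14 lower, against 41% (19.2% and 21.8%). The medians were 0.02 and 0, beside -0.04 and -0.05. Arrays did not overlap for 41 and 44 genes, against 49.5% and 49.9% of all probe sets. These 2 comparisons share no arrays: 24 of 80 genes (30%) were higher at 2 h in both, against 11.4% of all probe sets, and 8 (10%) were lower in both, against 9.32%. Collection time and preparation cannot be told apart in this design.

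Among the 24 were the neuronal syntaxin, SNAP-25, synapsin I, synaptophysin, Rab3a, dynamin 1 and AP180 genes. Syngr3, which encodes a synaptogyrin of the vesicle membrane, read 8.09, 7.82 and 8.22 in 30 min controls and 9.71, 9.88 and 9.55 in 2 h controls (1.67, SE 0.13, adjusted p = 1.14e-07, 3.18-fold). Sv2a rose from 7.61, 7.45 and 7.55 to 9.10, 9.33 and 9.11 (1.65, SE 0.08, adjusted p = 2.12e-09). Rab3a read 8.74, 8.75 and 9.07 against 10.11, 10.30 and 10.21 (1.35, SE 0.11, adjusted p = 1.62e-07). For all 3 the lowest 2 h control stood well above the highest 30 min control. Stx1a differed by 1.33, Snap91 by 1.31, Stx7 by 1.15, Syt4 by 1.13 and Dnm1 by 1.07, with adjusted p from 4.14e-09 to 1e-06. In depolarized cultures the same genes were higher by 1.12 (Syngr3), 1.27 (Sv2a), 1.24 (Rab3a), 1.17 (Stx1a), 0.95 (Snap91), 0.97 (Stx7), 0.98 (Syt4) and 0.88 (Dnm1).

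Other core genes also stood higher at 2 h in controls and in depolarized cultures: Syn1 by 0.98 and 0.68, Snap25 by 0.85 and 0.96, Cplx1 by 0.84 and 0.38, Nsf by 0.72 and 0.52, Syp by 0.69 and 0.52, Rims1 by 0.44 and 0.33 and Vamp2 by 0.38 and 0.48. The Vamp2 difference in controls was lost without control replicate 1 or 4 (adjusted p up to 0.127) and under quantile (adjusted p = 0.0815) or loess scaling (0.0633), and its dimmer probe set differed by -0.12. Vamp1 was higher by 0.51 at its brightest probe set, by 0.16 (adjusted p = 0.106) at the second and lower by 0.33 (adjusted p = 0.011) at the third, so its direction depends on the probe set. Dimmer probe sets of Cplx1 (-0.06) and Snap91 (-0.07) did not differ beyond the threshold, while the second probe sets of Stx1a (0.61), Syn1 (0.88) and Syt4 (1.10) were higher too. Rims2 was higher by 0.19 in controls (adjusted p = 0.0262, lost without control replicate 1, 2, 5 or 6, up to 0.101). Not every core gene followed. Not called in controls were Sv2b (0.04, 95% interval -0.13 to 0.22), Sv2c (-0.03, -0.21 to 0.15), Syn2 (0.10, -0.09 to 0.29) and Cplx2 (0.06, -0.13 to 0.25). Napa (0.05, -0.07 to 0.18), Unc13a (-0.12, -0.28 to 0.03), Amph (-0.10, -0.28 to 0.07) and Rph3a (-0.05, -0.20 to 0.11) were not called either. A dimmer Syn2 probe set was higher by 0.22 (adjusted p = 0.0462), and Syngr1 was lower by 0.26 (adjusted p = 0.00687). By mean level over all arrays, Rph3a, Sv2c and Cplx2 lay at percentiles 4.82, 22.8 and 22.9 of all probe sets. At probe sets this dim, a difference near 0 does not show that the gene was unchanged.

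The members lower at 2 h included plasma membrane SNAREs of many cell types and several GTPases outside the Rab3 family, while 2 other such GTPases, Rab33b (0.39 in controls and 1.08 in depolarized cultures) and Rab35 (0.25 and 0.23), were higher in both. The Rab35 call was lost in controls without control replicate 4 (adjusted p = 0.0667) and in depolarized cultures without depolarized replicate 1, 4 or 6 (up to 0.0711). In controls the largest falls were those of Snapc2 (-0.68, adjusted p = 2.61e-05), the widely expressed synaptogyrin Syngr2 (-0.50, adjusted p = 9.95e-05), Rab31 (-0.50, adjusted p = 0.00012), Stx4 (-0.42, adjusted p = 0.000281), Rab34 (-0.34), Rab38 (-0.34) and Snap23 (-0.34). Stx4 read 10.27, 10.15 and 10.23 at 30 min and 9.86, 9.88 and 9.67 at 2 h in controls, with no overlap. Snap23, the relative of SNAP-25, fell between collection times in controls and by 0.58 in depolarized cultures, while Snap25 was higher by 0.85 and 0.96. The 8 genes lower in both comparisons were Snap23, Stx4, Syngr2, Rab31, Rab34, Rab38, Snapc2 and Sytl4 (-0.24 in controls). Leaving out control replicate 2 or 4 ended the Rab38 call in controls (adjusted p up to 0.114), and that of Sytl4 without any of 5 arrays (up to 0.16) and under quantile or loess scaling. In depolarized cultures the calls of Rab38 and Sytl4 were lost without depolarized replicate 1, 2, 4 or 6 (adjusted p up to 0.161 and 0.135) and that of Rab31 without depolarized replicate 3, 4 or 5 (up to 0.104). Loess scaling also ended the call of Rab38 there (adjusted p = 0.0596), and quantile (0.0876) or loess scaling (0.0927) that of Sytl4.

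**Figure D4:**
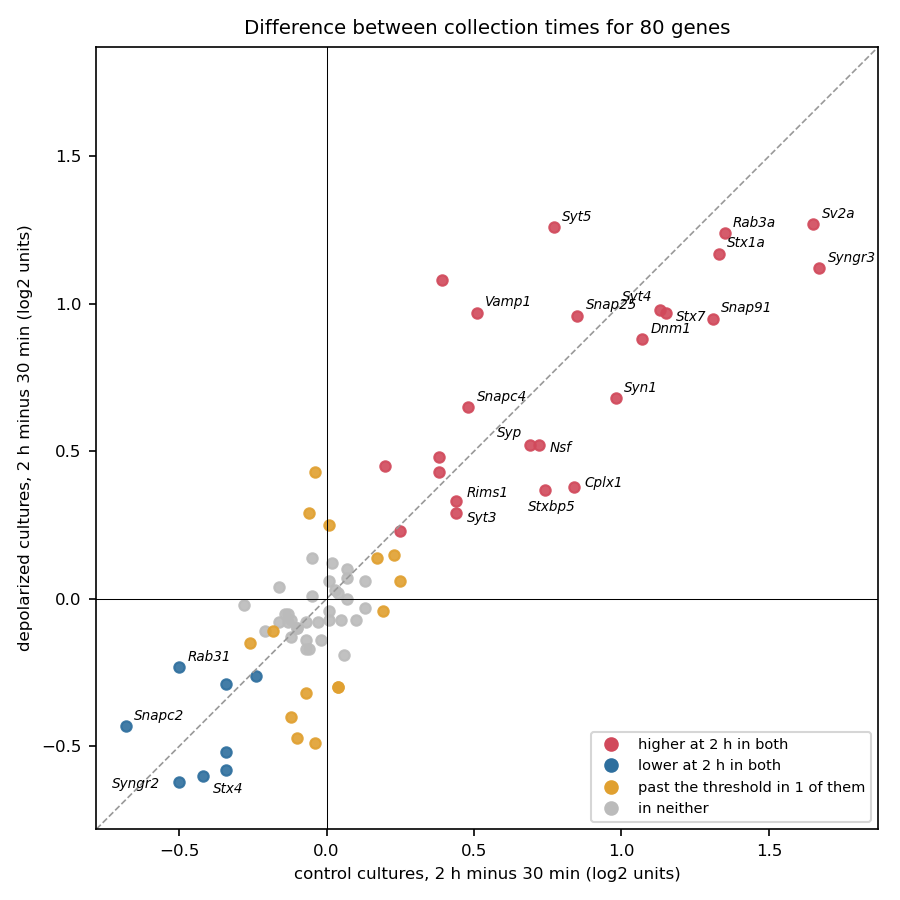
Difference between 2 h and 30 min (log2 units) in control cultures (horizontal axis) and in depolarized cultures (vertical axis) for the 80 genes; red points were higher and blue points lower in both at an adjusted p under 0.05, and the dashed line marks equal differences. The 24 red points reach 1.67 in controls, with Syngr3, Sv2a, Rab3a, Stx1a and Snap91 farthest right, and the 8 blue points reach -0.68.

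Cell type markers differed between collection times too. Of all probe sets, 18.1% were higher and 17.2% lower at 2 h in controls, and 19.2% and 21.8% in depolarized cultures. Of 11 pan-neuronal markers, 10 were higher at 2 h in controls (median 1.09; Nefh, at 0.15, was not called) and 10 in depolarized cultures (median 0.89); the growing-axon protein gene Gap43 differed by 1.27 in controls. Their mean level per array ran from 10.43 to 10.65 in 30 min controls and from 11.55 to 11.59 in 2 h controls. Of 9 dopaminergic markers 6 were higher in 2 h controls, among them Th (0.43), which encodes the enzyme that makes L-DOPA. Of 7 oligodendrocyte lineage markers 6 were lower (Olig1 by -2.45), as were 6 of 9 progenitor markers (Mki67 by -0.96) and 4 of 8 astrocyte markers (Gja1 by -0.45), while Aldh1l1 and Pax6 were higher; of 8 microglial markers 0 were called in controls by limma (2 at an unadjusted p under 0.05), and all 8 differences lay between -0.21 and -0.01. The part of these markers in the differences of the vesicle and SNARE genes was not tested. After depolarization 1 of 11 pan-neuronal markers was higher at 30 min (median 0.12) and 2 of 11 were higher at 2 h (median -0.06), with mean levels per array from 11.55 to 11.59 in 2 h controls and from 11.56 to 11.62 after depolarization. Nefm, a neurofilament gene, was the one called at both times (0.65 and 0.39). By limma 0 pan-neuronal markers were lower at 2 h, where 2 of 11 had an unadjusted p under 0.05 and a lower level, Elavl4 (-0.26) and Stmn2 (-0.20). Of all probe sets, 10.8% were higher and 13.1% lower with depolarization at 30 min, and 9.51% and 15.7% at 2 h. Other cell type markers also changed beside the 2 h falls. Of 6 endothelial and mural markers 1 was higher and 1 lower at 2 h, and 1 was lower at 30 min. Of 9 progenitor markers 4 were lower, down to -0.75 for the Notch target Hes5, and Sox2 was higher by 0.31. Of 7 oligodendrocyte lineage markers 2 were lower, Pdgfra (-0.75) and Cnp (-0.28). Of 9 dopaminergic markers Slc18a2, Nr4a2 and Foxa2 were higher (0.31, 0.26 and 0.37) and Aldh1a1 was lower (-0.59). Of 8 astrocyte markers 1 was higher, Glul (0.49), and of 8 microglial markers 0 were called by limma (0 at an unadjusted p under 0.05). At 30 min 2 dopaminergic markers, Nr4a2 (0.87) and Foxa2 (0.29), were higher, the Notch target Hes1 was higher by 1.07, and Notch1 (-0.37) and Pdgfra (-0.58) were lower. The part of these markers in the treatment differences was not tested either.

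Other genes of the vesicle cycle, from 5 lists of transporters, vesicle regulators, active zone and release site, endocytosis and proton pump genes, are given beside them. Of 101 such genes measured outside the 80, 11 rose and 5 fell at 30 min (10.9% and 4.95%, against 10.8% and 13.1% of all probe sets), and 9 rose and 21 fell at 2 h (8.91% and 20.8%, against 9.51% and 15.7%). The list of active zone and release site genes, which also holds exocyst genes, had 10 of the 21 falls, of 30 measured. There Apba2, a Mint adaptor, fell by 0.52 at 2 h (adjusted p = 0.000194), and Cask, a presynaptic scaffold, rose by 0.52 (adjusted p = 5.36e-05). At 30 min the exocyst genes Exoc3 and Exoc5 changed in opposite directions (-0.60 and 0.67, adjusted p = 2.98e-06 and 0.000153). Trappc4, a subunit of a Golgi tethering complex, fell by 0.79 at 30 min (adjusted p = 1.87e-07) and by 0.42 at 2 h, and Dnajc5, the vesicle chaperone cysteine string protein, rose by 0.31 at 30 min (adjusted p = 0.00136). Scamp3, a membrane protein of recycling carriers, fell by 0.46 at 2 h (adjusted p = 0.000201). Of 26 endocytosis genes 1 rose at 30 min, the clathrin heavy chain gene Cltc (0.30), and at 2 h Sh3gl1, an endophilin gene, rose by 0.36 and Hip1, a clathrin adaptor gene, fell by 0.32. Of 15 proton pump genes, Atp6v1b2 and Atp6v0c led the 3 rises at 30 min (0.36 and 0.30), where 1 gene fell. Atp6v1f and Atp6v1d led the 3 falls at 2 h (-0.27 and -0.24). Of 8 vesicular transporters 0 passed at 30 min by limma (0 at an unadjusted p under 0.05) and Slc18a2, the vesicular monoamine transporter, rose at 2 h (0.31, adjusted p = 0.0349). Between collection times 50 of the 101 were higher and 7 lower in controls (49.5% and 6.93%, against 18.1% and 17.2% of all probe sets, median 0.17), and 38 were higher and 5 lower in depolarized cultures (37.6% and 4.95%, against 19.2% and 21.8%, median 0.12).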

How the data were processed

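Expression was measured on single-colour Affymetrix rat arrays, 1 array for each of the 12 samples. The deposited values are log2 levels, 1 per probe set and array, and RMA is the method that the submitters' processing notes name; which arrays were normalized together is not given in the sources used here. Of 15923 probe sets, 57 array controls were left out. The array's annotation named 1 gene for 12783 probe sets and more than 1 for 312, and left 2771 unnamed. The 4 group means were estimated for all 15866 probe sets from the 12 arrays with limma 3.58.1 in R 4.3.3 (8 residual degrees of freedom, two-sided, Benjamini-Hochberg adjustment over all probe sets, threshold 0.05). Each gene was counted at its brightest probe set. Differences are given with the standard error (SE) or 95% interval of the fit.

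Array medians ran from 8.33 to 8.43, and correlations between arrays from 0.9957 to 0.9979 within groups and from 0.9717 to 0.9922 between groups. Arrays carry no read depth, so their number limits the precision. The genes, lists and rules were chosen with earlier results of these data known. Named with values were 25 measured genes of a fixed neuronal core and up to 8 largest rises and falls per comparison. Per list of other vesicle genes, up to 2 with the smallest p at each time were named. Stx6, Stxbp6, Unc13c and Sytl4 passed the threshold in some comparison and were given values outside this rule. The marker examples, Syt3 and Syn1's promoter were chosen after their values were seen. The fit was tested on simulated data. Alternatives were 3 further scalings, filters on dim probe sets, other variance estimates, a threshold of 0.01, a replicate block and leaving out each array. Promoter letters were searched with Python 3.11.15. Deviations of same-numbered control and depolarized arrays had correlations of mixed sign at both times, and the numbers were not taken as pairs. With 3 such pairs at each time, a shared pool of embryos could have gone undetected.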

Additional observations from a re-analysis of the deposited data

Results flagged for a closer look

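For 10 genes the response to depolarization differed between the collection times by the interaction term of the limma fit (adjusted p under 0.05). The 2 h response was higher than the 30 min response for Rab33b (0.68), Syt5 (0.48), Stxbp3 (0.47), Vamp1 (0.46) and Snapin (0.35). It was lower for Cplx1 (-0.46), Sv2a (-0.37), Unc13d (-0.36), Snap91 (-0.36) and Stx8 (-0.34). All values are differences of log2 differences. Groups of 3 arrays are too small for a test of single outlying arrays.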

How the results depend on the processing

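Of the 128 calls of members over the 5 comparisons, 0 reversed under the 3 other scalings, 20 were lost under at least 1 of them, and 84 were never lost when a single array was left out. The count at 30 min (20) was 8 with an ordinary equal-variance test on only the arrays compared. It was 9 at a threshold of 0.01 and 13 to 19 with 1 array left out. At 2 h (19) these counts were 2, 11 and 11 to 17. For the difference between responses (10) the threshold of 0.01 gave 3 and leaving out 1 array 6 to 12. For the 2 control groups (38) the ordinary test gave 24. The count of other vesicle cycle genes whose responses differed (12) was 4 to 14 with 1 array left out, and 4 or 5 without control replicate 2 or 5 or depolarized replicate 3 or 4. Shares of all probe sets were not counted under any of the alternative settings.

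The median of the members at 30 min (-0.02) was 0.03 after median centring. At 2 h (-0.05) it was -0.01 after median centring and -0.11 without the dimmest 50% of probe sets. For the response difference (-0.05) it was -0.11 without the dimmest 50%, -0.02 when a gene's probe sets were averaged and -0.06 to -0.01 with 1 array left out. Between controls (0.02) it was 0.01 after median centring, 0.04 after quantile and 0.06 after loess scaling, 0.06 without the dimmest 25%, 0.13 without the dimmest 50% and 0.02 to 0.04 with 1 array left out. Between depolarized groups (0) the same settings gave -0.02, 0.02, 0.04, 0.07, 0.14 and -0.02 to 0.06. Leaving out dim probe sets takes dim members out of the median and does not change the differences of the members that stay. The cause of the other shifts was not tested.

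With the replicate number as a block the counts of members were 20 at 30 min, 21 at 2 h and 9 for the response difference. Of 49 calls 45 held, and Nsf at 30 min (adjusted p = 0.0762) and the response differences of Snap91 (0.0516), Stx8 (0.0687) and Sv2a (0.0743) were lost. Same-numbered arrays correlated at -0.322, 0.229 and 0.0513 at 30 min and at 0.236, -0.107 and -0.241 at 2 h in their deviations from the group means. With only 3 such pairs at each time, these values cannot decide whether same-numbered arrays shared a pool of embryos. The number of arrays, 3 a group, limits the precision of these differences.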
